A study of Homo sapiens with 24 samples.

Results

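Full-length TFE3 was compared with empty vector (EV) in SW872, a human liposarcoma line that is long established in culture. The comparison took the 3 libraries titled TFE3 and the 3 confluent libraries titled EV, 6 of the 24 RNA-seq libraries of the study, and the 19917 genes, of 60279 listed, whose counts averaged 5 or more over these 6 libraries. The wider study expressed the sarcoma fusion proteins TAZ-CAMTA1 and YAP-TFE3, full-length CAMTA1 and TFE3, and the hyperactive forms TAZ4SA and YAP5SA in the same line, and TFE3 served there as one of the full-length counterparts of YAP-TFE3. TFE3 and EV cells carried stable retroviral insertions, of a vector for Flag-tagged TFE3 or of the empty vector, were selected for the vector's drug resistance, and were collected 48 h after reaching confluence. The promoter of the retrovirus drove TFE3 throughout the culture, so that these cells model constant expression and not a timed pulse. The YAP-TFE3 cells, used below as a reference, were handled in the same way, and a second empty vector group, called EVsub here, was collected before confluence. Per the methods, each of the 3 replicates of a construct came from its own transduction and selection, so the spread between libraries covers separately made pools of cells of this 1 line.

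TFE3 is a basic helix-loop-helix leucine zipper transcription factor of the MiT/TFE family, whose other members are TFEB, MITF and TFEC. The family binds short palindromic E-box sequences near genes for lysosomal enzymes, the proton pump of the lysosome and autophagy proteins. In fed cells, the kinase complex mTORC1 phosphorylates TFEB and TFE3 at the lysosome, where Rag GTPases and the folliculin complex bring kinase and substrate together, and the phosphorylated factors stay in the cytoplasm. Gene fusions of TFE3 occur in renal carcinoma, alveolar soft part sarcoma and epithelioid hemangioendothelioma, and several lysosomal and pigment cell genes serve as markers of such tumours.

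Added TFE3 changed few genes in confluent SW872 cells. At an adjusted p under 0.05, 7 genes were called out of 19917 (0.0351%), and all 7 were higher in TFE3 than in EV. They were TFE3 itself, the Rag GTPase gene RRAGD, the lysosomal and melanosomal glycoprotein gene GPNMB, the endosomal chloride-proton exchanger gene CLCN5, the sodium-proton exchanger gene SLC9A3, the amino sugar epimerase gene RENBP and the nicotinamide riboside kinase gene NMRK2. Lysosomal genes lay slightly higher as a group, with a median log2 fold change of 0.13 over 58 hydrolases and their activators, and 1 of the 3 TFE3 libraries did not share that shift. Targets of YAP and TAZ, genes of the integrated stress response and genes of lipid catabolism held no called member.

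Library totals in the comparison ran from 19700277 to 33384359 counts, with 5.09 to 6.36% of counts from mitochondrial genes. Levels are given as CPM, the count of a gene relative to the TMM-scaled total of its library, and each SD is over n = 3 libraries. The whole profiles did not separate the groups. Over all genes tested, the Euclidean distance between log2 CPM profiles was 47.3 to 61.9 between TFE3 and EV libraries, against 51.9 to 60.8 within EV and 53.9 to 58.1 within TFE3. For 5 of the 6 libraries, the nearest other library belonged to the other group. Markers of the cell type were mixed. Of the mesenchymal genes, VIM lay between 613 and 843 CPM, PDGFRB between 257 and 332 CPM and COL1A1 between 12.4 and 24.1 CPM. Of the adipocyte genes, PPARG lay between 42.7 and 56.2 CPM and LPL between 104 and 178 CPM. PLIN1, at 0.48 to 1.23 CPM, and CEBPA, at 0.43 to 0.80 CPM, were low. The mature adipocyte genes FABP4 and ADIPOQ, the epithelial gene CDH1 and the leukocyte gene PTPRC lay under the count filter. The keratin genes KRT8 (36.1 to 51.0 CPM) and KRT18 (116 to 165 CPM) and the endothelial gene CDH5 (27.6 to 54.3 CPM) were detected in both groups. No marker that was tested was called, and the smallest unadjusted p among them was 0.123 by edgeR, for PLIN1. In bulk RNA, fewer cells that express a gene and less RNA per cell cannot be told apart, here and in every result that follows.

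The sequences below are the promoter stretches of the called genes that hold a MiT/TFE-type E-box upstream of the start site, shown because the members of the family bind such letters. They come from RefSeq (GRCh38.p14), which gave a promoter of 300 bases (250 before and 50 after the start) for 6 of the 7 called genes, CLCN5 with 3 promoters. RRAGD had none in that table. Capitals mark CACATGA (the reverse complement of TCATGTG) and TCACGTGA.
GPNMB, chr7:23246622-23246750, plus strand: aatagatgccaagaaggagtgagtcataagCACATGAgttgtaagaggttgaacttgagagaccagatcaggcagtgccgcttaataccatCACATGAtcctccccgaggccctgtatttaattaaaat
CLCN5, chrX:50067508-50067575, plus strand: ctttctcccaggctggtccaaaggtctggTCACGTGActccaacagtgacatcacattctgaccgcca

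The GPNMB promoter held TCATGTG at 123 and at 62 bases before the start. CLCN5 held CACGTG with both flanking letters 50 bases before the start of 1 promoter, and TCATGTG 21 bases after the start of another. The promoters of TFE3, SLC9A3, RENBP and NMRK2 held neither CACGTG nor TCATGTG in these windows. Searched on both strands, CACGTG stood in 7.26% of all 35116 promoters of the table and TCATGTG in 2.92%, and TCACGTG, which contains CACGTG, stood in 3.71%. Among 12871 tested genes with a promoter, those shares were 12.1% for CACGTG, 2.64% for TCATGTG and 6.87% for TCACGTG. Of 41 lysosomal hydrolase genes with a promoter, 12 held TCACGTG (29.3%) and 6 held TCATGTG (14.6%). In the folliculin and Rag group TCACGTG stood in 6 of 16 (37.5%). It also stood in 10 of 60 genes within 2 Mb of TFE3 (16.7%) and 3 of 20 cell cycle genes (15.0%), lists with medians below 0. Of 9 tumour and pigment markers with a promoter, 0 held TCACGTG and 3 held TCATGTG, GPNMB among them. Of 40 lysosomal membrane genes, 10 held TCACGTG and 7 held TCATGTG, and of 16 V-ATPase subunits, 4 and 1 did. TCATGTG stood in 2 of the 60 genes near TFE3 and in 0 of the 20 cell cycle genes.

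TFE3 (ENSG00000068323) lies on the minus strand of chromosome X, from 49028726 to 49043410 of GRCh38. Its level was 108, 119 and 128 CPM in the 3 EV libraries and 356, 324 and 322 CPM in the 3 TFE3 libraries. The groups were far apart and the TFE3 libraries differed little among themselves. The fold was 2.81 (95% CI 2.42 to 3.27, edgeR adjusted p = 8.46e-09), and the counts do not separate the endogenous transcript from the inserted one. The YAP-TFE3 libraries held 298, 327 and 230 CPM of reads assigned to TFE3, which include the TFE3 portion of the fusion. This was -0.23 on the log2 scale relative to TFE3 (95% CI -0.44 to -0.02, edgeR adjusted p = 0.0694), which was not called. The other tested MiT/TFE genes were not called between TFE3 and EV. TFEB had a log2 fold change of 0.03 (95% CI -0.28 to 0.34) and MITF of 0.21 (95% CI -0.06 to 0.48), and TFEC lay under the count filter.

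RRAGD (ENSG00000025039), on chromosome 6, encodes 1 of the Rag GTPases that recruit mTORC1 and TFE3 to the lysosome. It measured 2.95, 3.26 and 4.53 CPM in EV and 6.67, 6.64 and 11.3 CPM in TFE3. Every TFE3 library was above every EV library, and replicate 3 was the highest in each group. RRAGD rose 2.31-fold (95% CI 1.74 to 3.07, edgeR adjusted p = 0.0142). Its level in EVsub was 5.21 ± 1.18 CPM, between the 3.58 ± 0.838 CPM of EV and the 8.21 ± 2.68 CPM of TFE3. Of the 21 tested genes of the folliculin, Rag, Ragulator and mTORC1 group, RRAGD was the only one called. The median of the group was 0.07 on the log2 scale, and 3 members had an unadjusted p under 0.05 toward higher, against 2.19% of all genes. The second of these was FLCN, which encodes folliculin, the GTPase-activating protein for RRAGC and RRAGD. FLCN measured 31.7, 34.8 and 40.2 CPM in EV and 42.5, 42.4 and 50.4 CPM in TFE3, groups that did not overlap. Its log2 fold change was 0.35 (95% CI 0.16 to 0.53, edgeR adjusted p = 0.532). The folliculin partners FNIP1 (0.24, 95% CI -0.07 to 0.54) and FNIP2 (0.08, 95% CI -0.12 to 0.27) and the other GTPase RRAGC (0.18, 95% CI -0.02 to 0.39) had intervals that included 0.

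GPNMB (ENSG00000136235), on chromosome 7, encodes a membrane glycoprotein of lysosomes and melanosomes that is used as a marker of TFE3-rearranged tumours. Its level was 52.9, 57.7 and 68.3 CPM in EV and 102, 82.1 and 160.5 CPM in TFE3. The groups did not overlap, but the TFE3 libraries spread over a wide range, with replicate 2 nearest to EV. GPNMB rose 1.93-fold (95% CI 1.52 to 2.45, edgeR adjusted p = 0.0253). Without TFE3 replicate 3 its log2 fold change was 0.63 in place of 0.95 and it was no longer called. The EVsub libraries, collected before confluence, held 154 ± 21.0 CPM of GPNMB, above the 115 ± 40.7 CPM of TFE3. EVsub was not compared with either group by a test. Whether density differed between the TFE3 and EV cultures was not tested, and the values of cell cycle genes in EVsub and TFE3 are given below.

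CLCN5 (ENSG00000171365) encodes an exchanger that loads chloride into endosomes in return for protons. It measured 11.5, 11.9 and 12.7 CPM in EV and 17.1, 17.2 and 20.4 CPM in TFE3, and the spread inside each group was small. It rose 1.51-fold (95% CI 1.30 to 1.76, edgeR adjusted p = 0.0253). Its level in EVsub was 16.1 ± 2.03 CPM, between the 12.1 ± 0.624 CPM of EV and the 18.2 ± 1.91 CPM of TFE3. CLCN5 lies on chromosome X from 49922596 to 50099235, within 2 Mb of the TFE3 gene. The 73 tested genes in that window had a median log2 fold change of -0.02, and CLCN5 was the only one of them called. The annotation places 8 other genes on the same strand inside its bounds, and the counting rule was not stated, so its counts are uncertain to that extent.

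SLC9A3 (ENSG00000066230), on chromosome 5, encodes the sodium-proton exchanger best known from the apical membrane of kidney and gut epithelium. It measured 2.81, 2.46 and 3.66 CPM in EV and 6.64, 7.27 and 8.62 CPM in TFE3, with no overlap. It rose 2.54-fold (95% CI 1.86 to 3.46, edgeR adjusted p = 0.0142). Its level in EVsub was 5.66 ± 1.16 CPM, between the EV and TFE3 groups. The organellar exchanger SLC9A9 had no overlap either, with 2.64, 3.14 and 3.18 CPM in EV and 4.38, 4.87 and 6.78 CPM in TFE3, but it did not pass the test (log2 fold change 0.84, 95% CI 0.29 to 1.39). The median of the 11 tested exchangers and their regulators was 0.05. SLC9A3 and SLC9A9 both overlap other annotated genes.

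RENBP (ENSG00000102032), on chromosome X far from TFE3, encodes the epimerase that interconverts N-acetylglucosamine and N-acetylmannosamine. It measured 4.49, 5.61 and 6.89 CPM in EV and 14.7, 9.21 and 17.3 CPM in TFE3. The groups did not overlap, and TFE3 replicate 2 was the lowest of its group. EVsub held 6.92 ± 0.645 CPM of RENBP. RENBP rose 2.44-fold (95% CI 1.85 to 3.21, edgeR adjusted p = 0.00685). Beside it, the N-acetylglucosamine-6-phosphate deacetylase gene AMDHD2 had a log2 fold change of 0.37 (95% CI 0.14 to 0.60, edgeR adjusted p = 0.872), and its groups did not overlap. The other 13 genes of amino sugar and sialic acid metabolism were not called, and the median of all 15 was 0.04, or -0.05 without TFE3 replicate 3.

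NMRK2 (ENSG00000077009), on chromosome 19, encodes a nicotinamide riboside kinase of muscle that feeds NAD synthesis. It was close to absent in EV, with 1, 1 and 2 counts, and had 14, 18 and 28 counts in the TFE3 libraries. The ratio of the summed counts, 60 against 4 and scaled for depth, was 11.6 with a 95% counting interval of 4.29 to 43.9, and the edgeR adjusted p was 0.0473. The fitted log2 fold change of 3.43 depends on the prior count. NMRK2 in EVsub was 0.0727 ± 0.0949 CPM, against 0.616 ± 0.258 CPM in TFE3. The other kinase of this step, NMRK1, had a log2 fold change of 0.26 (95% CI -0.06 to 0.57). NAMPT, the rate-limiting enzyme of the salvage route from nicotinamide, had 0.13 (95% CI -0.29 to 0.56). The median of the 12 genes of NAD synthesis was 0.03, but -0.03 without EV replicate 1 and -0.06 without TFE3 replicate 3.

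**Figure D1:**
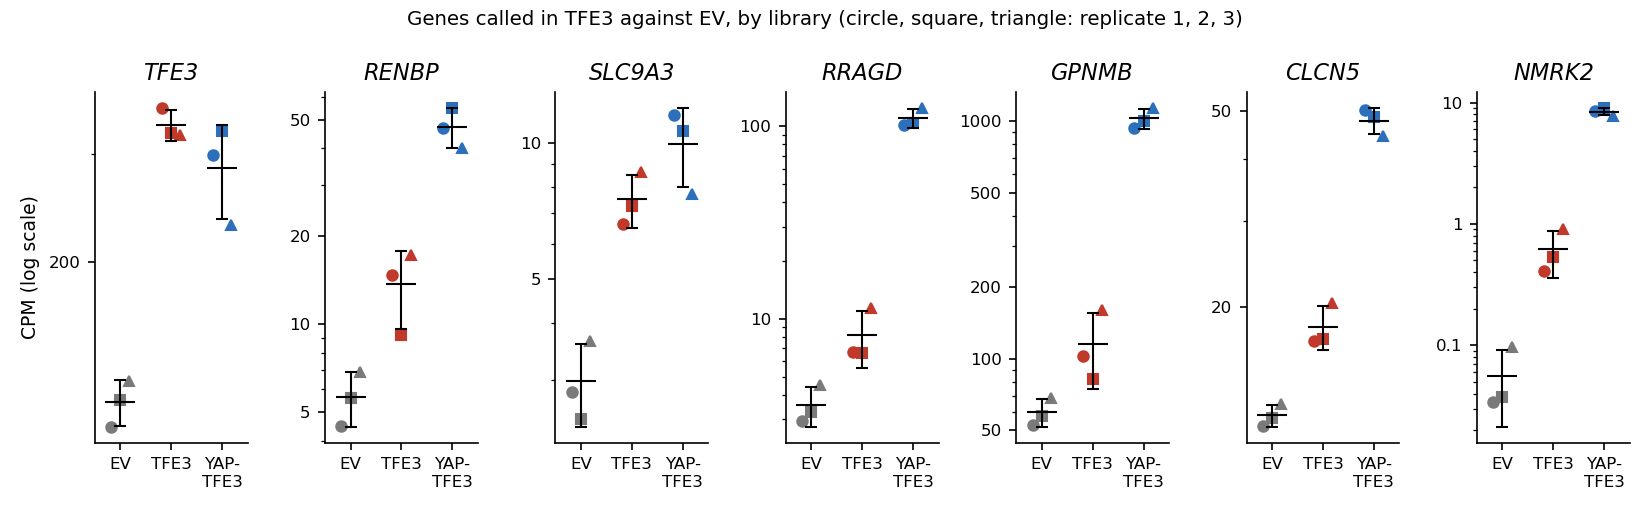
CPM on a log axis of the 7 called genes in the EV, TFE3 and YAP-TFE3 libraries, with the 3 replicates drawn as circle, square and triangle, and the mean with SD in black (n = 3). EV and TFE3 libraries do not overlap for any of the 7 genes, which were selected by the test between these same libraries. Over all genes tested, 4.4% did not overlap with TFE3 higher. RRAGD, GPNMB, CLCN5, RENBP and NMRK2 are much higher in YAP-TFE3. TFE3 reads in YAP-TFE3 are close to those of TFE3 cells, but the fusion carries only part of TFE3.

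The called genes shared an order of libraries. In all 6 called genes other than TFE3, replicate 3 was the highest of the EV libraries and also the highest of the TFE3 libraries. This order held for 12.4% of all genes tested and for 26 of 58 lysosomal hydrolases and activators (44.8%). TFE3 itself was highest in replicate 1 of its group. In YAP-TFE3 the third library was the highest for RRAGD and GPNMB and the lowest for SLC9A3, RENBP, CLCN5 and NMRK2. Calls were lost with 1 library left out. Without EV replicate 1, EV replicate 2 or TFE3 replicate 3, TFE3 was the only gene called. Without TFE3 replicate 2 the count was 12. A fit with fewer libraries has less precision, and some estimates moved little. Without EV replicate 2, the log2 fold change was 1.285 for RENBP, in place of 1.287, and 1.224 for SLC9A3, in place of 1.343. Without TFE3 replicate 3 it was 0.91 for RRAGD, in place of 1.21, and 0.63 for GPNMB, in place of 0.95.

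The size of change was bounded for most genes. Among 13724 genes that averaged 50 counts or more, the log2 fold change lay between -0.26 and 0.30 for the central 95%, and its median SE was 0.12. The 95% interval lay inside a 2-fold change in either direction for 99.1% of these genes and inside a 1.5-fold change for 88.1%. A change of at least 1.5-fold in the estimate was seen for 46 genes (0.335%), 37 higher and 9 lower, and a change of at least 2-fold for 4. Under 50 counts the median SE was 0.38, and smaller changes there were not detectable at this depth. At an unadjusted p under 0.05 there were 437 higher genes (2.19%) and 328 lower genes (1.65%). Together these 765 genes (3.84%) were fewer than the 995.9 expected if p were uniform. The counts alone therefore do not show changed genes. The TFE3 and EV libraries did not overlap, with TFE3 higher, for 877 genes (4.4%), and with TFE3 lower for 893 (4.48%), close to equal numbers.

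**Figure D2:**
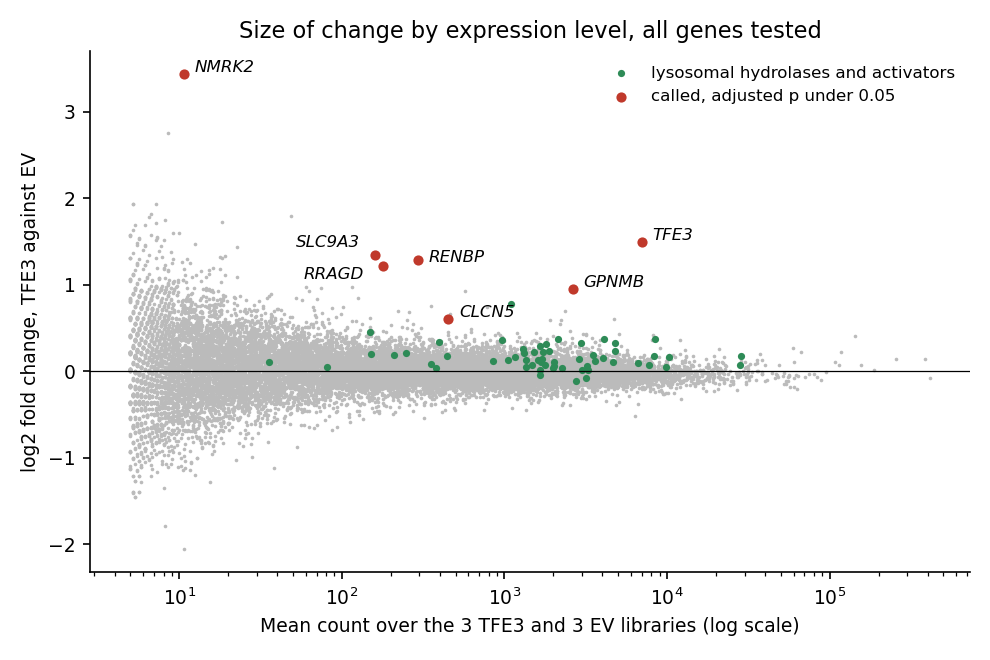
Log2 fold change of TFE3 against EV for the 19917 genes tested, against the mean count over the 6 libraries on a log axis. The 7 called genes are red and named, and the 58 lysosomal hydrolases and activators are green. Most genes above 50 counts lie within a narrow band around 0, and the green points lie mostly above the line.

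Lysosomal hydrolases and their activators, the enzymes that degrade proteins, glycans and lipids, lay mostly above 0. All 58 on the list were tested, 55 had a positive log2 fold change against 49.7% of all genes, and the median was 0.13 against 0.00 over all genes. An unadjusted p under 0.05 toward higher was found for 12 (20.7%, against 2.19% of all genes) and toward lower for 0 (1.65% of all genes), and edgeR called none, while DESeq2 called ACP5. The largest change was in ACP5, the tartrate-resistant acid phosphatase, with 21.7, 25.9 and 33.3 CPM in EV and 46.8, 33.2 and 58.4 CPM in TFE3. The groups touched, since EV replicate 3 and TFE3 replicate 2 were level, and the log2 fold change was 0.78 (95% CI 0.42 to 1.14, edgeR adjusted p = 0.259). Tripeptidyl peptidase TPP1 had a log2 fold change of 0.38 (95% CI 0.13 to 0.62), acid ceramidase ASAH1 0.38 (95% CI 0.10 to 0.65) and the aspartic protease CTSD 0.37 (95% CI 0.10 to 0.65). For hexosaminidase subunit HEXA the value was 0.31 (95% CI 0.09 to 0.53), and for the carboxypeptidase SCPEP1 0.32 (95% CI 0.09 to 0.55). The 3 enzymes with values below 0 were LIPA, CTSC and IDS, at -0.11, -0.08 and -0.04.

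**Figure D3:**
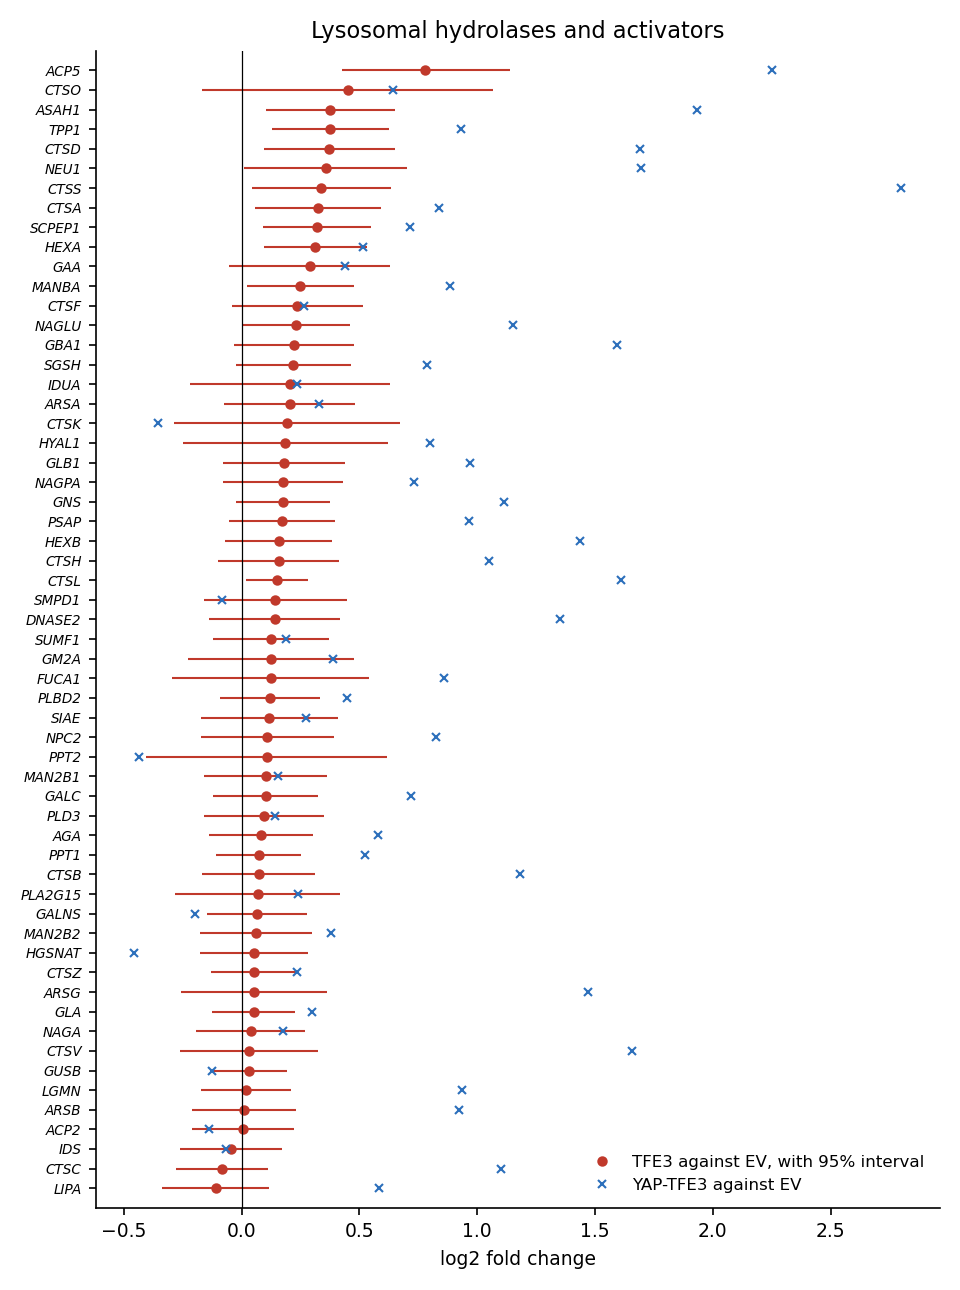
Log2 fold change of the 58 lysosomal hydrolases and activators in TFE3 against EV (red, with 95% interval) and in YAP-TFE3 against EV (blue crosses), sorted by the TFE3 value. In TFE3, 55 of 58 lie above 0 and most intervals cross 0, and the blue crosses lie mostly to the right.

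The shift in hydrolases was not shared by all TFE3 libraries. Relative to the mean of the EV libraries, the median over the list was -0.14, -0.02 and 0.15 in the 3 EV libraries and 0.20, -0.04 and 0.22 in the 3 TFE3 libraries. Replicates 1 and 3 of TFE3 lay above every EV library, while replicate 2 lay within the EV range. Counted by gene, 52 and 53 of the 58 enzymes were above the EV mean in TFE3 replicates 1 and 3, 19 in TFE3 replicate 2 and 52 in EV replicate 3. The median log2 fold change was 0.23 without TFE3 replicate 2 and 0.22 without EV replicate 3, and it was 0.07 without TFE3 replicate 3 and 0.08 without EV replicate 1.

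Other lysosomal genes had smaller values. Of 47 membrane proteins and transporters, 33 were higher (70.2%, against 49.7% of all genes), GPNMB and CLCN5 were called, and the median was 0.09. An unadjusted p under 0.05 toward higher was found for 5 (10.6%, against 2.19% of all genes) and toward lower for 0. The chloride-proton exchanger CLCN7 had a log2 fold change of 0.32 (95% CI 0.11 to 0.54), and the calcium channel MCOLN1 0.21 (95% CI -0.02 to 0.44). Of the 22 tested subunits of the V-ATPase, the pump that acidifies lysosomes, 14 were higher (63.6%), and the median was 0.06. An unadjusted p under 0.05 toward higher was found for 3 subunits (13.6%, against 2.19% of all genes). ATP6V0A1, a membrane subunit, had the lowest p among them, at a log2 fold change of 0.26 (95% CI 0.07 to 0.45). ATP6V0D2, ATP6V1G2 and ATP6V1G3 lay under the count filter. Of 57 tested autophagy genes, 40 were higher (70.2%), with a median of 0.05. An unadjusted p under 0.05 toward higher was found for 3 of them (5.26%, against 2.19% of all genes). The autophagy receptor SQSTM1 had a log2 fold change of 0.26 (95% CI 0.02 to 0.50), and the tethering complex subunit VPS18 0.23 (95% CI -0.05 to 0.52).

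Markers of TFE3-fusion tumours and pigment cells had a median of 0.33 over 13 tested genes, of which GPNMB and NMRK2 were called. There were 10 higher genes (76.9%, against 49.7% of all genes). An unadjusted p under 0.05 toward higher was found for 4 (30.8%, against 2.19% of all genes). The list had 16 genes, and TRIM63, TYR and TRPM1 lay under the count filter. Per library the median ranged from -0.04 to 0.04 in EV and from 0.18 to 0.41 in TFE3, and EVsub reached 0.28. The melanosomal enzyme TYRP1 was even within groups, at 7.10, 6.78 and 6.99 CPM in EV and 9.60, 9.78 and 10.1 CPM in TFE3. Its log2 fold change was 0.50 (95% CI 0.28 to 0.71, edgeR adjusted p = 0.174), and DESeq2 gave an adjusted p of 0.0207.

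Cell cycle genes lay slightly lower. All 26 were tested and 1 was higher (3.85%, against 49.7% of all genes). An unadjusted p under 0.05 toward lower was found for 4 (15.4%, against 1.65% of all genes). None was called, and the median was -0.16. The mitotic kinase AURKB measured 57.0, 56.3 and 53.8 CPM in EV and 44.5, 54.8 and 35.1 CPM in TFE3 (log2 fold change -0.31, 95% CI -0.56 to -0.07). The ribonucleotide reductase subunit RRM2 had -0.31 (95% CI -0.85 to 0.23). By library the median over the list was 0.05, 0.04 and -0.10 in EV and -0.28, 0.06 and -0.44 in TFE3. The same libraries stood apart as for the hydrolases, in the opposite direction. TFE3 replicates 1 and 3 and EV replicate 3 had the lowest cell cycle medians and the highest hydrolase medians. TFE3 replicate 2 lay within the EV range for hydrolases and just above it for the cell cycle. In EVsub the cell cycle median was 0.68 to 0.74 and the hydrolase median -0.18 to -0.16. What this covariation across cultures contributed to the lysosomal values was not tested.

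**Figure D4:**
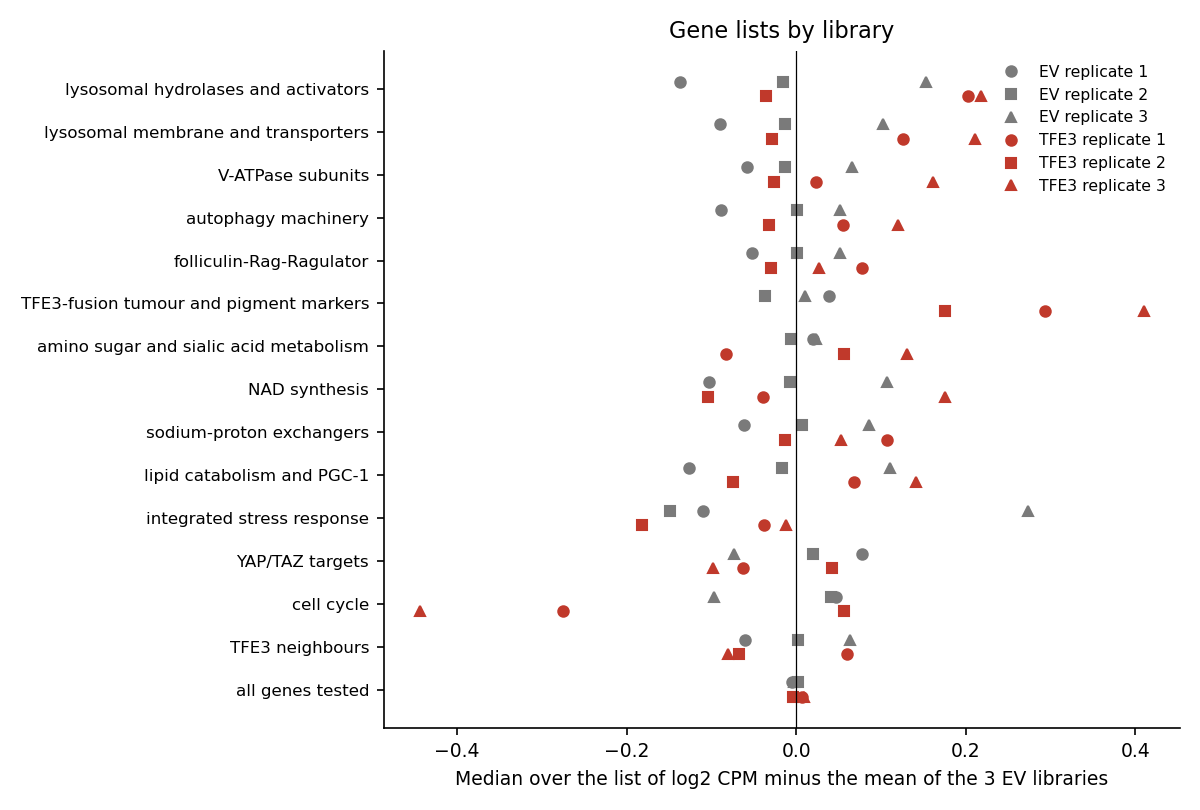
Median over each gene list of log2 CPM minus the mean of the 3 EV libraries, for each EV library (grey) and each TFE3 library (red), with the replicate as circle, square or triangle. TFE3 replicate 2 (red square) lies among the EV libraries for hydrolases and just above the highest of them for the cell cycle. Only the tumour and pigment markers, which include the called GPNMB and NMRK2, show no overlap among the lists drawn. Of all 15 gene lists, 2 had no overlap, the other being the MiT/TFE factors, which are not drawn and include TFE3.

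The remaining programs showed no called member in edgeR or DESeq2. EdgeR called 0.0351% of all genes, so a list of this size would rarely hold one, and the absence says little about these programs. Of 22 targets of YAP and TAZ, 7 were higher (31.8%, against 49.7% of all genes). An unadjusted p under 0.05 was found for 0, against 2.19% of all genes toward higher and 1.65% toward lower. CCN1 had a log2 fold change of -0.20 (95% CI -0.42 to 0.03) and CCN2 of -0.34 (95% CI -0.73 to 0.06). Of 21 genes of the integrated stress response, 5 were higher (23.8%), and the median was -0.11, or 0.01 without EV replicate 3. An unadjusted p under 0.05 was found for 1, toward lower (4.76%, against 1.65% of all genes). The stress factor ATF3 had -0.47 (95% CI -0.98 to 0.04), and the glutathione-degrading enzyme CHAC1 -0.41 (95% CI -1.13 to 0.31). Of 17 tested genes of lipid catabolism, 0 had an unadjusted p under 0.05, against 2.19% of all genes toward higher and 1.65% toward lower. Their median was 0.02, but -0.02 without EV replicate 1 and -0.0040 without TFE3 replicate 3. PPARGC1A, the coactivator PGC-1alpha, had 0.57 (95% CI -0.18 to 1.33), an interval too wide to bound it, and ANGPTL4 had 0.36 (95% CI -0.58 to 1.30).

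Among protein-coding genes that averaged 50 counts or more and had no overlap between groups, the largest estimates not called in the main edgeR fit were CFAP70, SULT1C2 and MAT1A on the higher side. MAT1A, a liver-type methionine adenosyltransferase, measured 1.68, 1.51 and 1.78 CPM in EV and 3.25, 2.09 and 4.39 CPM in TFE3 (log2 fold change 0.96, 95% CI 0.51 to 1.42, edgeR adjusted p = 0.264). DESeq2 called MAT1A, with an adjusted p of 0.0295. The sulfotransferase gene SULT1C2 had 0.97 (95% CI 0.47 to 1.48) and CFAP70 0.98 (95% CI 0.35 to 1.60). Without a filter beyond 1 count, edgeR called MAT1A and SULT1C2. On the lower side, the matrix protein gene SMOC1 measured 2.74, 2.04 and 2.55 CPM in EV and 1.48, 1.35 and 1.16 CPM in TFE3 (log2 fold change -0.88, 95% CI -1.34 to -0.42, edgeR adjusted p = 0.462). C3orf52 had -0.66 (95% CI -1.05 to -0.27), PHOSPHO2 -0.62 (95% CI -1.09 to -0.15), EBF3 -0.62 (95% CI -1.07 to -0.17), ZAP70 -0.56 (95% CI -1.07 to -0.04) and CPA4 -0.55 (SE 0.22). The sterol enzyme gene MSMO1 had -0.45 (95% CI -0.92 to 0.02).

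Genes were also grouped by the letters in their promoter. The 340 tested genes with TCATGTG had a median log2 fold change of 0.06. Of them, 7.06% had an unadjusted p under 0.05 toward higher, against 1.89% of the 12531 genes without TCATGTG. For TCACGTG the share was 3.96% of 884 genes against 1.89% of the other 11987, and for CACGTG 2.64% of 1552 against 1.94% of 11319. The shares toward lower were 1.18% with TCATGTG and 1.60% without. These are descriptions of letters in a window and include the lysosomal genes above.

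YAP-TFE3 was compared with TFE3 directly. The reads assigned to TFE3 were similar, but the fusion carries only part of TFE3 and both groups include endogenous reads. The amounts of construct or protein were therefore not matched. Between YAP-TFE3 and TFE3 libraries, 4920 genes (24.7%) were higher and 4388 (22.0%) lower in YAP-TFE3. Of the 6 genes called in TFE3 besides TFE3 itself, 5 were higher again in YAP-TFE3. RRAGD measured 101, 104 and 124 CPM there, 3.74 above TFE3 on the log2 scale (95% CI 3.36 to 4.13, edgeR adjusted p = 8.42e-14). GPNMB measured 940, 1009 and 1140 CPM, 3.16 above TFE3 (95% CI 2.80 to 3.53, edgeR adjusted p = 6.54e-13). The difference was 3.78 for NMRK2 (95% CI 3.16 to 4.39), 1.79 for RENBP (95% CI 1.42 to 2.16) and 1.39 for CLCN5 (95% CI 1.18 to 1.60). SLC9A3 was the exception, at 11.5, 10.7 and 7.74 CPM and 0.41 above TFE3 (95% CI 0.00 to 0.81, edgeR adjusted p = 0.0921), and its YAP-TFE3 and TFE3 libraries overlapped.

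Some genes were lower in YAP-TFE3 than in TFE3. TYRP1 fell to 3.00 ± 0.158 CPM from 9.82 ± 0.239 CPM in TFE3, a log2 difference of -1.71 (95% CI -1.94 to -1.48, edgeR adjusted p = 9.81e-12), and this level was also under that of EV. AMDHD2 (-0.62, 95% CI -0.85 to -0.39), CFAP70 (-0.95, 95% CI -1.56 to -0.35) and TFEB (-0.98, 95% CI -1.30 to -0.67) were called lower as well. MAT1A differed most among the named genes, at 137.8 ± 15.6 CPM in YAP-TFE3 and 3.25 ± 1.15 CPM in TFE3.

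The same comparison called many members of the gene lists. Against TFE3, and beside 24.7% of all genes higher and 22.0% lower, YAP-TFE3 had 36 of 58 hydrolases called higher and 2 lower (median 0.53), 26 of 47 lysosomal membrane genes higher and 4 lower (0.38), and 28 of 57 autophagy genes higher and 2 lower (0.23). The integrated stress response, which held no called gene in TFE3, had 20 of 21 genes higher in YAP-TFE3 than in TFE3, with a median difference of 2.11. YAP and TAZ targets had 17 of 22 higher and 2 lower, and cell cycle genes 23 of 26 lower. Set against EV, which both comparisons share, the hydrolase median was 0.13 in TFE3 and 0.72 in YAP-TFE3, and the cell cycle median was -0.16 and -1.12.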

How the data were processed

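Poly(A) RNA of SW872 cells was sequenced after stranded library preparation. The authors deposited raw counts per Ensembl gene, 1 table per library, from reads aligned to hg38 with Hisat2 in bcbio-nextgen. The counting tool, its use of strand and its treatment of reads with several alignments are not given in the sources used here. The study ran its own tests with DESeq2 on salmon estimates, a different quantification.

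The deposited counts were fitted with the edgeR 4.0.16 quasi-likelihood F test (R 4.3.3, TMM scaling, all 24 libraries with 1 mean per group), and p-values were adjusted by Benjamini-Hochberg over all 19917 genes. Genes entered if their counts averaged 5 or more over the 6 libraries. Standard errors came from the log2 fold change and its F statistic, and 95% intervals from the t distribution with the fit's degrees of freedom. Totals of 19700277 to 33384359 counts set the precision, and counting intervals cover counting error only. An exact permutation test of 3 against 3 libraries cannot fall under 0.1. Symbols and positions came from GENCODE release 44, which matched 56104 of 60279 identifiers.

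The comparison, the gene lists and the rule for named genes were chosen with earlier results of these data known. Named were TFE3, all called genes, per list the 2 members with the largest absolute change at a mean of at least 50 counts and every member with p under 0.01, the 8 largest changes in each direction among protein-coding genes with at least 50 counts and no overlap, and 14 genes by name. A few members shown for contrast (LIPA, CTSC and IDS) were named after their values were seen. Alternatives were other scalings and filters, a fit of the 6 libraries alone, the replicate number as a block, DESeq2 1.42.0 and leaving out each library. The scripts were tested on simulated counts.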

Additional observations from a re-analysis of the deposited data

How the results depend on the processing

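The count of called genes, 7, was 13 without a filter beyond 1 count, 15 with DESeq2 and 2 in a fit of the 6 libraries alone, and ran from 1 to 12 with 1 library left out. The DESeq2 calls included 3 lower genes, UBE2D3, PTGES3 and RNF139, named after their values were seen. TFE3 was called under all 14 alternatives. SLC9A3 was called under 11, RENBP, RRAGD and GPNMB under 10 each, CLCN5 under 7, and NMRK2 under 5 of the 13 that tested it. The genes at an unadjusted p under 0.05, 765, became 1156 without the filter and 459 to 1051 with 1 library left out, and the higher ones, 437, became 792 and 248 to 615.

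Whether the replicate numbers pair the libraries cannot be settled with 3 libraries per group. Deviations from the group mean correlated at -0.24, -0.01 and 0.17 for numbers 1, 2 and 3, and at -0.26 to 0.30 for unlike numbers. With the replicate block, 5 genes were called, CLCN5 and NMRK2 being lost, and 9424 in place of 9308 between YAP-TFE3 and TFE3. It changed no other call among the named genes.

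List medians kept their sign under every alternative for hydrolases (0.07 to 0.23), membrane genes (0.04 to 0.15), V-ATPase (0.01 to 0.11), autophagy (0.02 to 0.09), YAP/TAZ targets and cell cycle (-0.33 to -0.07). With 1 library left out, the MiT/TFE median ranged from 0.12 to 0.35, folliculin-Rag from 0.0065 to 0.0736, tumour and pigment markers from 0.16 to 0.35 and amino sugar genes from -0.0525 to 0.0833. The tumour and pigment median was 0.20 at a mean of 20 counts. The median of all genes was 0.01165 with total-count scaling, 0.0255 without a filter and 0.0061 in the 6-library fit. With 1 library left out, the median changed sign for the stress response (-0.16 to 0.01), NAD synthesis (-0.06 to 0.12), lipid catabolism (-0.02 to 0.10) and TFE3 neighbours (-0.07 to 0.0013), the last also without a filter. Causes were not tested. Depth limits the genes under 50 counts, NMRK2 among them.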
